A study of Xiphophorus maculatus with 24 samples.

Results

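Oxidative phosphorylation is the last stage of respiration in the mitochondrion. Complex I (NADH dehydrogenase) and complex II (succinate dehydrogenase, which is also an enzyme of the citric acid cycle) pass electrons to complex III (the cytochrome bc1 complex), which hands them through cytochrome c to complex IV (cytochrome c oxidase). Complexes I, III and IV pump protons out of the matrix, and complex V (ATP synthase) uses their return to make ATP. Most subunits are encoded in the nucleus and imported, a few are encoded on the mitochondrial genome, and dedicated assembly factors put the complexes together without staying in them.

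The transcripts described here are the 82 genes, of 24209 in the count table, whose symbol in the study's gene tables begins with nduf, sdh, uqcr, atp5, or cox followed by a digit. They comprise 27 nuclear subunits and 5 assembly factors of complex I, 3 subunits and 4 assembly factors of complex II, 6 subunits of complex III, 11 nuclear subunits, 8 assembly factors and the mitochondrially encoded COX1, COX2 and COX3 of complex IV, and 14 subunits of complex V with its accessory gene atp5s. Because the table of all genes carries no names, only genes that appear in the study's lists of singletons or of cyclic genes could be chosen. The list is therefore not a full inventory of the complexes. Of the 82, 66 were in the singleton list and 16 only in the list of cyclic genes. Those 16 were thus chosen by cycling in an organ of this study, and sdhaf2, NDUFS1 and ndufv1 by cycling in skin. Counts of genes called for time of day are not independent of that choice. SDHB (ENSXMAG00000016660) carried another name in a second organ's list, and 2 gene IDs share the symbol atp5fa1.

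RNA-Seq counts came from the skin of mature male *Xiphophorus maculatus* Jp 163 A, an inbred platyfish line, without treatment. The labels mark every library as male. The study's methods give a single strain and a single housing, 13 h of light and 11 h of dark, for all fish. They mention no separate collections, so shared housing rests on that general statement. The 24-month collection, named here by the age in its labels, has 16 libraries, 2 for each 3-hourly clock time beginning at 8 h, which is 0.5 h after lights on (zeitgeber time, Zt). The 12-month collection has 8 libraries, 2 for each of 8, 14, 20 and 2 h. The dates in the sample names differ by 2 years between collections. The study's methods give 12 months as the age of all fish, unlike the labels of the 24-month collection. Sample names of the 12-month collection carry the number that the methods give for the inbred generation. Those of the 24-month collection carry no such number. Age, year, preparation and any difference in generation cannot be told apart. Sample names of the 24-month collection give fish letters m to w at the 4 shared times and ab to ak at 11, 17, 23 and 5 h, which cannot be told apart from clock time. Each library is described by the labels as its own sample, but not by tank or litter, and letters a to c recur over the times of the 12-month collection without a statement of what they mark, so p-values measure the spread between these libraries.

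Total counts ran between 31071542 and 36066368 in the 8 libraries of the 24-month collection at the shared times and between 25927255 and 29385115 in the 8 of the 12-month collection, without overlap. The epidermal markers krt5, epcam, ppl and tp63 were counted in every library. Replicate A at 17 h of the 24-month collection stood apart, with 25736825 counts and a TMM (trimmed mean of M values) scaling factor of 0.617, against 0.959 to 1.08 in the other 23 libraries. Its values are given separately for the main edgeR results that they enter. DESeq2 counts over the 16 libraries of this collection, and fits with all 24 libraries, include it without a separate version. Levels below are TMM-normalised CPM (counts scaled to a common library total), not corrected for transcript length, so they are compared between libraries and not between genes.

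Of the 82 genes, 74 passed the filter on low counts. Of the others, 7 genes, namely uqcrb, atp5md, atp5mf, ndufa6, ndufb7, ndufaf1 and sdhaf1, had a count of 0 in all 24 libraries. They are among 866 such genes in the whole table. A count of 0 allows up to 3 counts, or 0.0832 to 0.117 CPM by library. Why these genes, most of which are subunits and ndufaf1 and sdhaf1 assembly factors, were not counted was not tested. The remaining gene, ndufa4l2b, reached 0.766 CPM in replicate A at 8 h of the 12-month collection and at most 0.0363 CPM elsewhere.

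**Figure D1:**
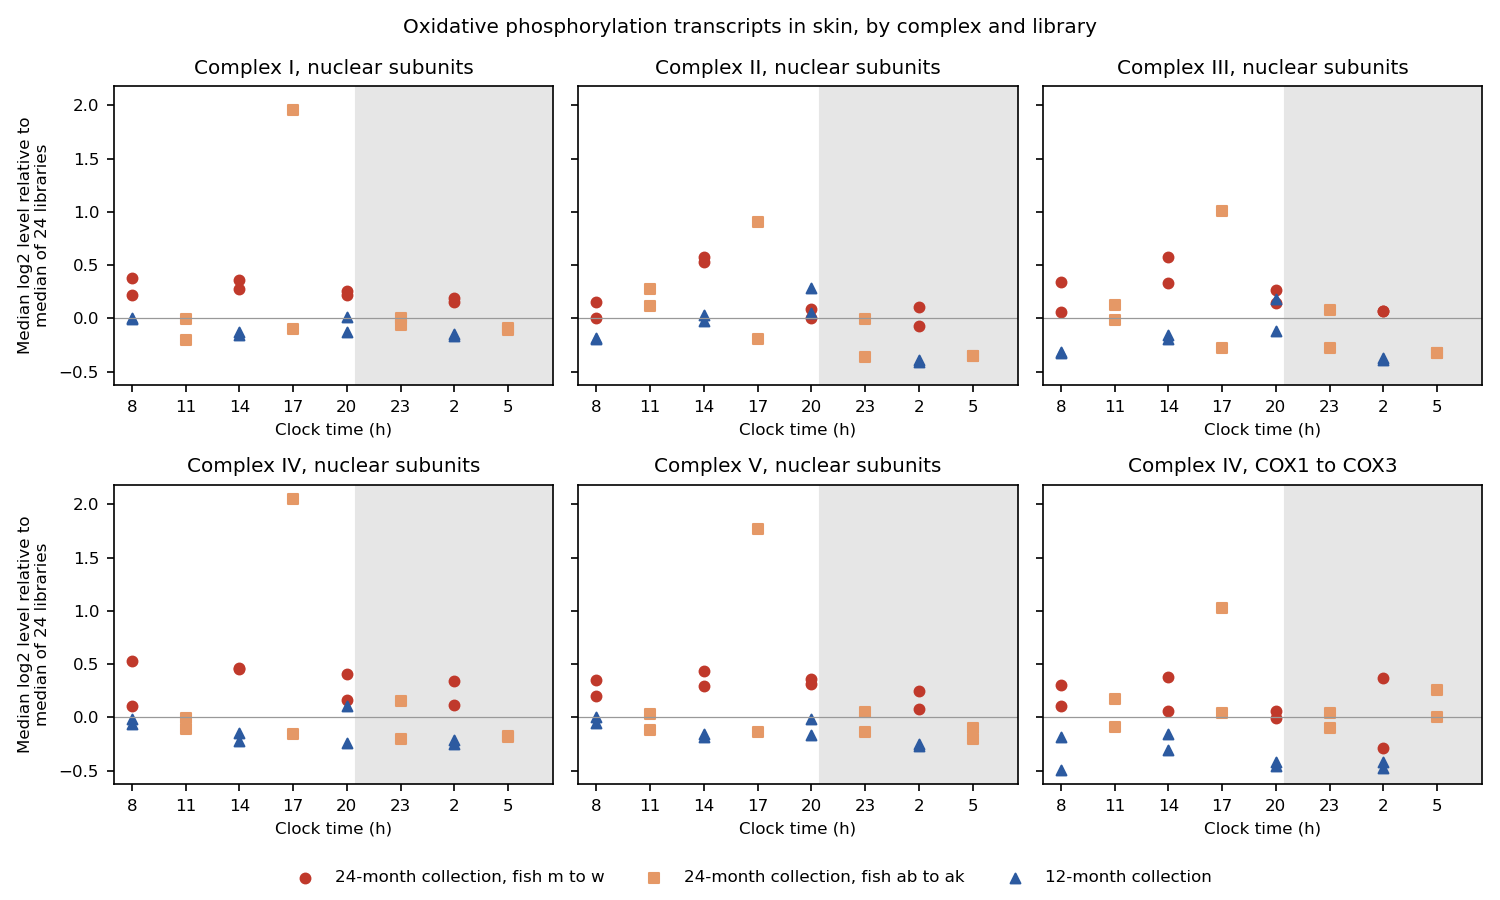
Median log2 level of the nuclear subunits of each complex, and of COX1 to COX3, in each of the 24 libraries against clock time (h), relative to each gene's median over the 24 libraries (grey, dark phase). In complexes I and V the 8 libraries of 24-month fish m to w sit above all 8 libraries of the 12-month collection, the fish ab to ak sit beside the 12-month collection, and the single high point is 17 h replicate A.

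More of these genes differed between collections than in any other comparison that used all its libraries. At the 4 shared times, 52 of the 74 genes were higher in the 24-month than in the 12-month collection and 2 were lower (edgeR quasi-likelihood test with collection and time as terms, Benjamini-Hochberg adjusted p under 0.05), where 22.8% of all 19550 genes tested were called higher and 22.4% lower. The median log2 fold change of the 74 genes was 0.38, against 0.00 over all genes. For 17 genes every 24-month library of these times lay above every 12-month library, which 5.13% of all genes tested did. In the values given below for this comparison, the 24-month collection stands for its 8 libraries of fish m to w. By complex, the genes called higher were 21 of 25 nuclear subunits of complex I, 1 of 3 of complex II, all 5 of complex III, 6 of 10 of complex IV, 9 of 12 of complex V, all 3 mitochondrially encoded subunits, and 7 of 16 assembly factors. The median log2 fold change was 0.41 for nuclear subunits and 0.22 for assembly factors. The difference between these 2 medians was not tested.

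**Figure D2:**
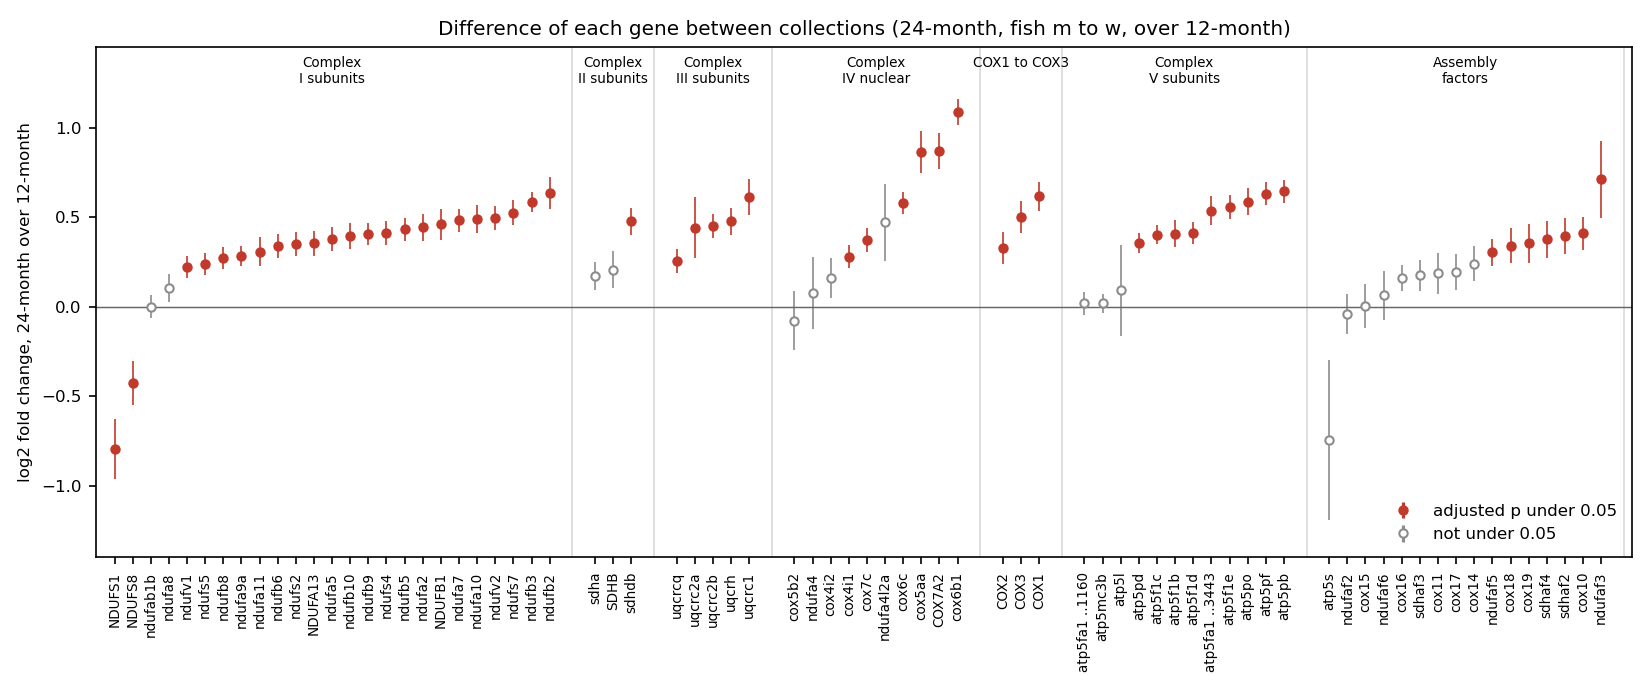
Log2 fold change of each of the 74 genes in the 24-month collection (fish m to w) over the 12-month collection, with its standard error, ordered within each complex; filled points have an adjusted p under 0.05 (edgeR). Most points lie between 0.2 and 0.7, cox6b1 is highest and NDUFS1 and NDUFS8 are the called genes below 0.

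Complex IV held the largest changes. cox6b1, a subunit at the interface of the oxidase dimer, had 69.7 and 56.0 CPM at 8 h, 55.6 and 57.9 at 14 h, 65.1 and 63.0 at 20 h and 58.8 and 48.2 at 2 h in the 24-month collection, against 27.7, 27.4, 25.4, 26.9, 31.2, 28.4, 28.8 and 26.9 CPM in the 12-month collection in the same order. The lowest 24-month library was well above the highest of the 12-month collection at every time. The log2 fold change was 1.09 ± 0.07 (SE, edgeR adjusted p = 1.06e-07, n = 8 libraries each). COX7A2, a small membrane subunit of the oxidase, averaged 66.6 ± 10.6 CPM in the 24-month collection and 37.4 ± 10.6 in the 12-month collection (SD, n = 8 each), a log2 fold change of 0.87. cox5aa, which sits on the matrix side of the enzyme, averaged 130 ± 26.4 CPM in the 24-month collection and 72.0 ± 16.4 in the 12-month collection (0.86 on the log2 scale). Both genes overlapped slightly, because the 12-month libraries of 20 h reached 53.9 CPM for COX7A2 and 104 CPM for cox5aa. In contrast cox4i1, the standard isoform of the subunit that binds ATP, changed by 0.28, and its oxygen-responsive counterpart cox4i2, at 1.30 to 3.14 CPM in the 24-month collection and 1.16 to 2.55 CPM in the 12-month collection, changed by 0.16 and did not pass the test (edgeR adjusted p = 0.261). ndufa4, long assigned to complex I and now known as a subunit of complex IV, changed by 0.08 with a standard error of 0.20, and its relative ndufa4l2a by 0.47 with an edgeR adjusted p of 0.0886.

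Among ATP synthase subunits, atp5pb and atp5pf, which build the peripheral stalk that holds the catalytic head still, were called with the largest changes. At the shared times atp5pb had 128 to 155 CPM (median 143) in the 24-month collection and 83.1 to 102 CPM (median 90.5) in the 12-month collection. There atp5pf had 57.3 to 74.3 CPM (median 69.8) in the 24-month collection and 36.7 to 53.4 CPM (median 44.7) in the 12-month collection. At these times neither gene overlapped between collections, and their log2 fold changes were 0.64 ± 0.07 and 0.63 ± 0.06 (SE). Fish ab to ak were not part of this comparison. Apart from 17 h replicate A, they had 42.0 to 54.7 CPM of atp5pf, and the lowest atp5pb value in the 24-month collection was 109 CPM. The catalytic subunit atp5f1b changed by 0.41. atp5mc3b, a gene of the membrane ring and the complex V subunit with the most reads, averaged 623 ± 41.1 CPM in the 24-month collection and 614 ± 43.8 in the 12-month collection (SD), a log2 fold change of 0.02 whose standard error was 0.05. Of the 2 genes named atp5fa1, the alpha subunit, ENSXMAG00000003443 was called with a log2 fold change of 0.54 ± 0.08, and ENSXMAG00000001160 was not called, at 0.02 ± 0.06 (SE). The difference between the copies was not tested. How reads shared by copies were assigned is not stated, so the split between them is uncertain.

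In complex I the small accessory subunits ndufb2 and ndufb3 were called with log2 fold changes of 0.64 and 0.58. At the shared times ndufb3 had 43.5 to 50.04 CPM (median 46.0) in the 24-month collection and 28.6 to 33.5 CPM (median 30.2) in the 12-month collection. Fish ab to ak of the 24-month collection, apart from 17 h replicate A, had 28.5 to 35.8 CPM of ndufb3. ndufv1, the NADH-binding core subunit and the complex I gene with the most reads, changed less, by 0.22 ± 0.06 (SE). The 2 genes called lower both bear names of core iron-sulphur subunits. NDUFS1 averaged 5.86 ± 2.04 CPM in the 24-month collection and 10.3 ± 3.56 in the 12-month collection (SD), and NDUFS8 averaged 5.12 ± 1.28 in the 24-month and 6.87 ± 1.52 in the 12-month collection. Both sets of values overlapped, and the log2 fold changes were -0.80 ± 0.17 and -0.42 ± 0.12 (SE). The assembly factor ndufaf3, at 1.75 to 4.43 CPM in the 24-month collection and 0.653 to 2.81 CPM in the 12-month collection, was called higher by 0.71.

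In complexes II and III the called genes were sdhdb, a membrane anchor of succinate dehydrogenase (0.48), and every measured subunit of complex III, among which uqcrc1, the core protein with the most reads there, averaged 215 ± 39.2 CPM in the 24-month collection and 141 ± 30.6 in the 12-month collection (SD). uqcrc2a and uqcrc2b, copies of the other core protein, changed by 0.44 and 0.45. Not called were sdha, the flavoprotein that oxidises succinate (0.17, edgeR adjusted p = 0.0865), and SDHB, its iron-sulphur partner (0.21, edgeR adjusted p = 0.114).

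The mitochondrially encoded subunits form the catalytic core of complex IV. COX1 had 11103 to 17364 CPM (median 14518) in the 24-month collection and 8278 to 11138 CPM (median 9398) in the 12-month collection, and COX3 had 3514 to 5834 CPM (median 4764) in the 24-month collection and 3044 to 4024 CPM (median 3317) in the 12-month collection. The ranges of COX1 overlapped only through replicate D at 2 h of the 24-month collection, its lowest library. Log2 fold changes were 0.62 ± 0.08 for COX1, 0.50 ± 0.09 for COX3 and 0.33 ± 0.09 for COX2 (SE). Of 9 other protein genes of the mitochondrial genome, 7 were called higher and none lower, by 0.45 (ATP6) to 2.34 (ND3), and ND4L and ND5 were not called. Of 7 citric acid cycle genes found, 4 were called higher and none lower (idh3a, idh3b, sucla2 and suclg2, by 0.27 to 0.45). Of 9 regulators of mitochondrial genes, only the coactivator ppargc1b was called (0.90), and of 8 glycolysis genes tested, pgk1 was called higher (0.48) and tpi1a lower (-1.10).

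Each shared time was also taken alone. The number of the 74 genes called higher was 29 at 8 h, 44 at 14 h, 21 at 20 h and 36 at 2 h, where 16.1%, 15.2%, 13.6% and 13.1% of all genes were. Complexes II and III had median log2 fold changes of 0.55 and 0.62 at 14 h and of -0.16 and 0.15 at 20 h. At 20 h the values for sdha (-0.16), SDHB (-0.30), uqcrc2a (-0.50) and ndufaf3 (-0.13) were opposite in sign to those over the 4 times, and none of these passed the test (edgeR adjusted p = 0.0511 for uqcrc2a, the lowest of them). Leaving out any library kept between 52 and 57 genes called in either direction.

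Markers of other tissue parts moved with the collections too. Of 8 skeletal muscle markers, 6 were called higher in the 24-month collection and 1 lower (tpma), with summed levels of 2474 to 13428 CPM in the 24-month collection and 2602 to 5722 CPM in the 12-month collection. Both red cell markers were called higher, 4 of 5 dermal fibroblast markers lower (summed 1389 to 5463 CPM in the 24-month collection and 6041 to 9491 CPM in the 12-month collection), all 4 leukocyte markers lower, 1 of 2 pigment cell markers and 1 of 2 nerve markers lower, and of 4 epidermal markers 2 higher and 1 lower. Every marker of these lists was counted in every library. The pigment cell markers dct and pnp4a, however, fell to 1 and 3 counts, no more than a count of 0 allows. The part of cell composition in the higher subunit transcripts was not tested, and in whole skin fewer cells of a type cannot be told apart from less RNA per cell.

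Within the 24-month collection the levels of complexes I and V separated by the series of fish letters, and so by the sets of clock times. Apart from 17 h replicate A, the 7 libraries of fish ab to ak had complex I medians between -0.20 and 0.00 and complex V medians between -0.20 and 0.05 on the relative log2 scale, whereas the 8 libraries of fish m to w had 0.15 to 0.37 and 0.08 to 0.43. The 12-month libraries had -0.17 to 0.01 and -0.27 to 0.00. The series overlapped in complex II (-0.36 to 0.27 in those 7 libraries of fish ab to ak and -0.07 to 0.57 in fish m to w), in complex III (-0.33 to 0.13 and 0.06 to 0.58 in the same order) and in complex IV (-0.20 to 0.15 and 0.11 to 0.53). COX1 to COX3 overlapped too, with -0.10 to 0.26 in fish ab to ak, -0.29 to 0.38 in fish m to w and -0.50 to -0.16 in the 12-month collection.

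A comparison of fish m to w with fish ab to ak, with a daily cosine as covariate, was added after these values were seen. Over all 16 libraries edgeR called none of the 74 genes, where 0.25% of all genes were called higher and 0.359% lower. Of the 74, 4 had an unadjusted p under 0.05, again without the share of all genes beside it. DESeq2 called 2 of the 74, where it called 718 of all 19212 genes tested. Without 17 h replicate A edgeR called 36 genes, all higher in fish m to w, where 2.32% of all genes were called higher. All 36 were nuclear subunits: 17 of complex I, 3 of complex III, 6 of complex IV and 10 of complex V. cox6b1 changed by 0.68 ± 0.11 and ndufb3 by 0.55 ± 0.07 (log2, SE), with 29.1 to 47.1 and 28.5 to 35.8 CPM in the 7 libraries of fish ab to ak. COX1, COX2 and COX3, the 3 subunits of complex II and all 16 assembly factors were not called. Both this comparison and that of the collections use the libraries of fish m to w, so they are not independent.

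Replicate A at 17 h carried more of most of these transcripts than any other library of its collection. Relative to the median of the other 15 libraries of the 24-month collection, its level was 3.00 times as high for the median of the 74 genes, with 65 of them (87.8%) above all 15 libraries, where 27.9% of 16452 genes over 1 CPM were. Scaled by total counts alone the median ratio was 1.88, with 51 genes above all 15 libraries against 9.48% of all genes. On that scale the median of all genes in this library was 0.607.

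**Figure D3:**
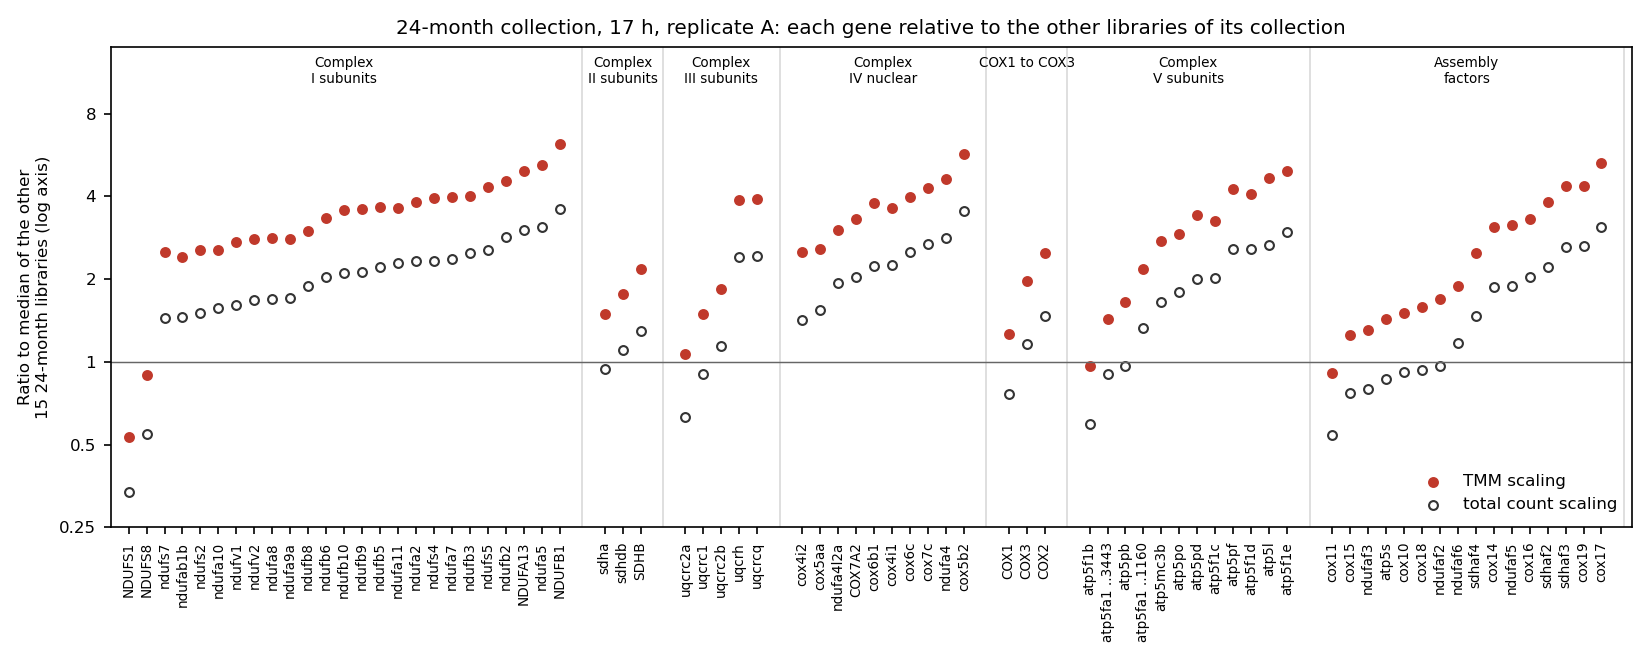
Ratio of each gene's level in 17 h replicate A of the 24-month collection to its median in the other 15 libraries of the 24-month collection (log axis), under TMM scaling (filled) and total count scaling (open). Under total count scaling most complex I, IV and V subunits lie near 2, whereas the subunits sdha, uqcrc2a, uqcrc1, atp5f1b, atp5pb, atp5fa1 ENSXMAG00000003443, COX1, NDUFS1 and NDUFS8 and several assembly factors lie below 1.

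The excess was uneven among subunits of the same complex. Under total count scaling NDUFB1, a small membrane subunit of complex I, was at 3.59 times the median of the other libraries, cox5b2, a zinc-binding subunit of complex IV, at 3.53 and the copper chaperone cox17 at 3.10. On the same scale COX2 stood at 1.46, COX3 at 1.17 and COX1 at 0.763, although the 3 genes lie on the same mitochondrial genome. Core subunits of other complexes lay on both sides of 1. Those below were sdha at 0.941, uqcrc1 at 0.907, atp5fa1 ENSXMAG00000003443 at 0.904, uqcrc2a at 0.631 and atp5f1b at 0.593. Those above were SDHB at 1.30, uqcrc2b at 1.14, atp5fa1 ENSXMAG00000001160 at 1.33 and atp5f1c, the rotating central stalk subunit, at 2.02. In TMM-normalised CPM, muscle markers summed to 14404 in this library against 2474 to 13428 in the other 23. Red cell markers summed to 262 CPM against 13.2 to 181 on the TMM scale. Total count scaling lowers both sums in this library to below the highest of the other 23. Replicate B at 17 h gave no such values, with 33.1 TMM-normalised CPM of cox6b1 against 182 in replicate A. The cause was not tested.

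The time course asked which transcripts changed over the 24 h of the 24-month collection. With all 16 libraries no gene of the 74 differed between the 8 times (edgeR F test), where 1.41% of all genes did. Of the 74, 8 had an unadjusted p under 0.05, a count not set here against the share of all genes. DESeq2 called 9 of the 74, where it called 4128 of all 19212 genes tested. Without 17 h replicate A edgeR called 13 of the 74, where 10.1% of all genes were called. Without its partner replicate B, replicate A alone stood for 17 h, so that fit cannot tell this clock time from this library. More of the 74 genes and more of all genes were then called than with any other library left out. The rise was therefore not confined to these genes. The 3 smallest p-values with all libraries belonged to sdha, uqcrc2a and cox15 (adjusted p = 0.0707, 0.0726 and 0.0925, edgeR), and all 3 were among the 13 called without replicate A.

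**Figure D4:**
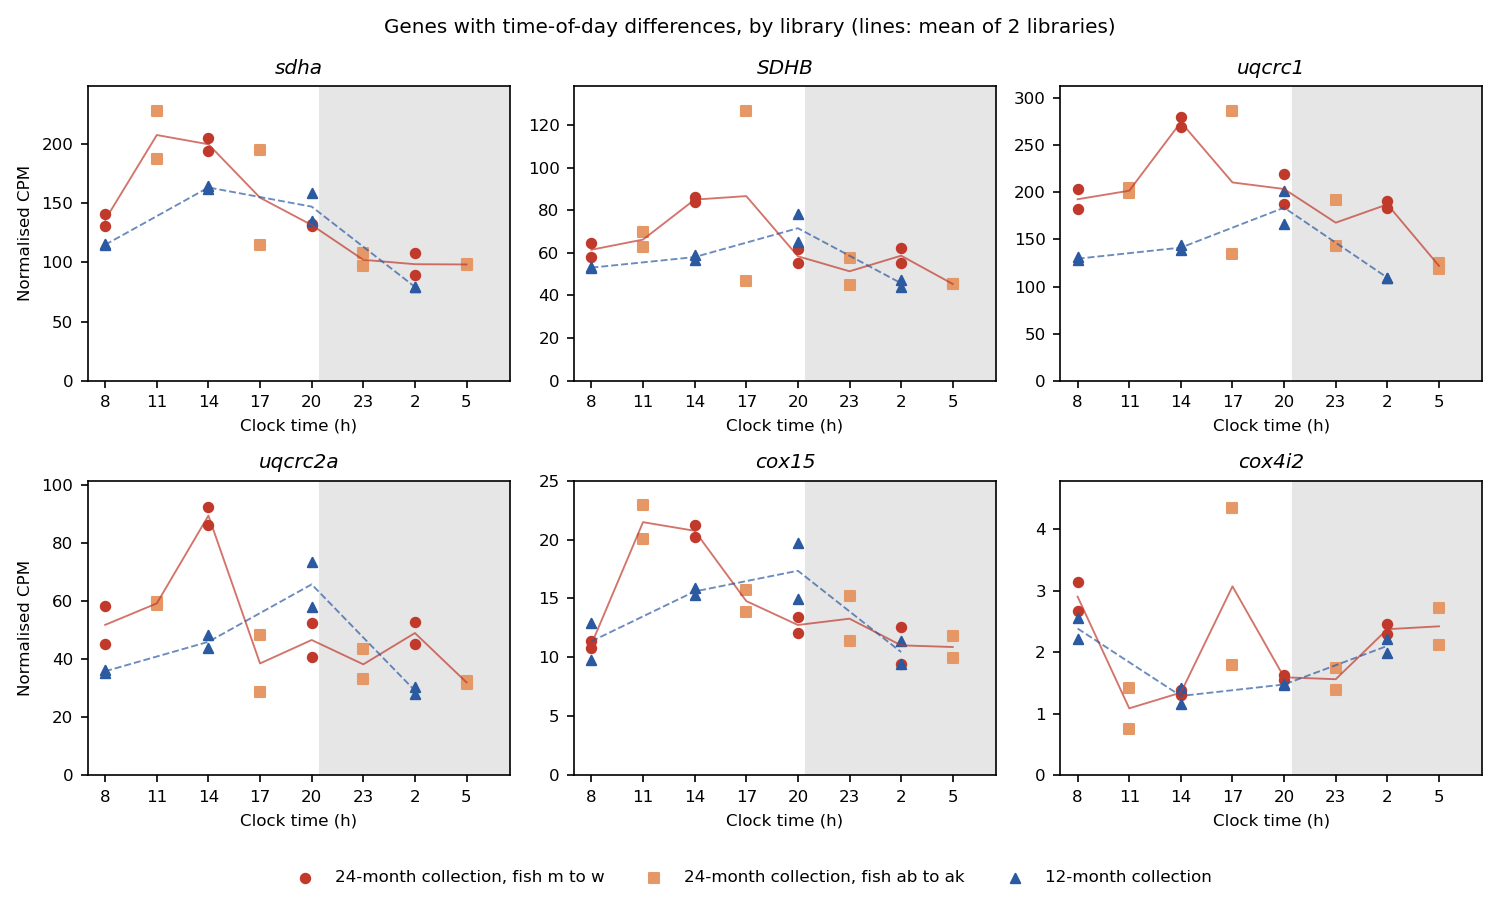
Normalised CPM of sdha, SDHB, uqcrc1, uqcrc2a, cox15 and cox4i2 in each library against clock time (h), with lines through the means of 2 libraries (solid 24-month, dashed 12-month; grey, dark phase). sdha and cox15 are high at 11 and 14 h in the 24-month collection, cox4i2 is low there, and SDHB, uqcrc1 and uqcrc2a are highest at 14 h in the 24-month collection apart from 17 h replicate A, but at 20 h in the 12-month collection.

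The catalytic subunit of complex II had the clearest daily pattern. sdha had 141 and 131 CPM at 8 h, 228 and 188 at 11 h, 195 and 205 at 14 h, 195 and 114 at 17 h, 131 and 133 at 20 h, 96.7 and 108 at 23 h, 108 and 89.2 at 2 h, and 97.7 and 98.9 at 5 h in the 24-month collection. All libraries of 11, 14 and 17 h lay above all libraries of the dark phase. A 24-h cosine gave an amplitude of 0.55 on the log2 scale, a 2.15-fold span between peak and trough, with the peak 5.91 h after lights on (edgeR F test, adjusted p = 0.00458). It was the only gene of the 74 called for such a rhythm, where 1.5% of all genes were. In the 12-month collection sdha had 115 and 115 CPM at 8 h, 162 and 165 at 14 h, 159 and 135 at 20 h, and 79.1 and 79.6 at 2 h.

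Leaving out any library kept sdha called. Within fish m to w alone the amplitude was 0.49 with its peak 6.24 h after lights on (edgeR adjusted p = 0.0657), and within fish ab to ak alone it was 0.59 with its peak 5.74 h after lights on (edgeR adjusted p = 0.734), each over 8 libraries. Neither passed the test on its own. With all 24 libraries and collection as a term, 12 of the 74 genes were called, where 3065 of all 19783 genes tested were. Among the 12 were cox15 (amplitude 0.41, peak 7.49 h after lights on), sdhaf2 (0.48, 8.60 h) and NDUFS1 (0.49, 22.2 h). sdhaf2, NDUFS1 and ndufv1 stood in the study's list of cyclic skin genes, a choice made on these samples. That list came from the rain algorithm with another p-value limit, so it and the cosine test are not a like comparison. In a separate list of light-responsive genes, the study named sdha, uqcrc2a and cox15 for skin. The study describes that list as a comparison of early light with late dark phase. In the 24-month libraries the cosine amplitudes of sdhaf2, NDUFS1 and ndufv1 were 0.51, 0.46 and 0.33 with edgeR adjusted p of 0.167, 0.122 and 0.238. Without 17 h replicate A those of sdhaf2 and ndufv1 were 0.21 and 0.12, and that of NDUFS1 was 0.42.

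Midday (14 h) was set against the time 12 h later (2 h, called midnight here) over both collections. Of the 74 genes, 10 were higher at midday and 1 was lower (edgeR), where 5.23% of all genes were called higher and 5.55% lower. Among those called, sdhaf2, ndufv1 and uqcrc2a were in the gene set only through the list of cyclic genes. The median log2 fold change was 0.15 against 0.00 over all genes. sdha had the largest, 1.03 ± 0.11 (SE, edgeR adjusted p = 0.000106), with 195, 205, 162 and 165 CPM at midday against 108, 89.2, 79.1 and 79.6 CPM at midnight. The groups did not overlap. The others called higher were the heme A synthase cox15 (0.76), the copper chaperone cox17 (0.47), the complex I genes ndufv1 (0.32), ndufv2 (0.38), ndufaf3 (0.99) and ndufaf5 (0.39), the factor sdhaf2 that helps attach flavin to sdha in yeast (0.56), and the core proteins uqcrc1 (0.47) and uqcrc2a (0.78). cox4i2 was lower, with 1.383, 1.30, 1.42 and 1.16 CPM at midday against 2.45, 2.29, 1.99 and 2.21 CPM at midnight, a log2 fold change of -0.76 ± 0.16 (SE).

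Only sdha was called under every alternative of this comparison. cox4i2 was lost when replicate D at 14 h of the 24-month collection was left out (edgeR adjusted p = 0.0562). uqcrc1, uqcrc2a, cox17 and ndufaf3 were lost on leaving out most libraries, with edgeR adjusted p between 0.0456 and 0.0497 in the full set. Of the 16 fits with 1 library left out, cox15 was called in 12, sdhaf2 in 11 and ndufaf5 in 10. With total count scaling 4 were called higher and 1 lower, while the split over all genes was 757 higher and 1399 lower, against 1023 and 1085 with TMM. None of the muscle, red cell, epidermal, fibroblast, pigment, leukocyte or nerve markers was called between midday and midnight. Of the 9 regulators 3 were called higher at midday, ppargc1a, the coactivator of mitochondrial biogenesis (1.28), tfam, the packaging factor of mitochondrial DNA (0.63), and the nuclear receptor esrra (0.50). None was lower.

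Dawn (8 h) was set against dusk (20 h), the first and last times in the light. Of the 74 genes, 4 were higher at dawn and 4 lower (edgeR), where 7.15% of all genes were called higher and 7.9% lower, and the median log2 fold change was -0.01. Among those called, NDUFS1, NDUFS8, atp5fa1 ENSXMAG00000003443 and uqcrh were in the gene set only through the list of cyclic genes. cox4i2 had 3.14, 2.67, 2.55 and 2.22 CPM at dawn, against 1.55, 1.63, 1.48 and 1.47 CPM at dusk, without overlap (0.78 ± 0.16, SE). Higher at dawn were also ndufs4, a complex I subunit needed for its stability (0.44), ndufb10 (0.35) and NDUFS1 (0.97), the last with 9.66, 5.85, 12.4 and 15.51 CPM at dawn against 5.21, 4.79, 5.14 and 5.69 CPM at dusk. Lower at dawn were COX7A2, with 59.5, 61.3, 27.1 and 28.6 CPM at dawn against 69.6, 83.6, 53.9 and 53.8 CPM at dusk (-0.65 ± 0.14, SE), as well as NDUFS8 (-0.56), atp5fa1 ENSXMAG00000003443 (-0.38) and uqcrh (-0.36). For COX7A2 the groups overlapped across collections but not within either.

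cox4i2, ndufs4 and COX7A2 were called under every alternative of the dawn and dusk comparison. Of 21 alternatives, NDUFS1 was called in 18, atp5fa1 ENSXMAG00000003443 in 11, uqcrh and ndufb10 in 10 each and NDUFS8 in 9. Total count scaling gave 3 higher and 6 lower, while the split over all genes was 1098 and 2088, against 1397 and 1545 with TMM. Of 8 muscle markers 3 (ckma, ckmb and neb) were called higher at dawn, and of 5 fibroblast markers 1 (col5a1) lower, and their part in these values was not tested. Of the regulators tfam (-0.77) and nrf1 (-0.63), a transcription factor of respiratory genes, were lower at dawn.

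Whether the shape of the day differed between collections was tested as an interaction of collection and time. Of the 74 genes 3 were called (edgeR F test), where 11.8% of all genes were. They were uqcrc2a (adjusted p = 0.0118), SDHB (adjusted p = 0.0275) and uqcrc1 (adjusted p = 0.0334). uqcrc2a and SDHB were in the gene set only through the list of cyclic genes. uqcrc2a had 92.7 and 86.4 CPM at 14 h and 40.6 and 52.7 at 20 h in the 24-month collection, against 48.2 and 43.8 at 14 h and 73.7 and 58.0 at 20 h in the 12-month collection. SDHB had 86.4 and 83.8 CPM at 14 h and 55.1 and 61.7 at 20 h in the 24-month collection, against 59.3 and 56.9 at 14 h and 78.1 and 65.2 at 20 h in the 12-month collection. uqcrc1 had 269 and 280 CPM at 14 h and 187 and 220 at 20 h in the 24-month collection, against 144 and 139 at 14 h and 201 and 167 at 20 h in the 12-month collection. Of the 4 shared times, all 3 genes were highest at midday in the 24-month collection and at dusk in the 12-month collection.

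In the 24-month collection 39 of the 74 genes (52.7%) had their highest mean of the 4 shared times at 14 h, where 32.9% of all genes did. In the 12-month collection 32 (43.2%) were highest at 8 h and 29 (39.2%) at 20 h, where 30.2% and 31.4% of all genes were. The 14 h peak in the 24-month and the 20 h peak in the 12-month collection were combined by 20 genes, and by 20.6% of all genes. At 2 h 1 gene was highest in each collection (1.35%), where 20.3% of all genes were in the 24-month and 24.7% in the 12-month collection. Of 7 citric acid cycle genes idh3a and mdh2 were called in the interaction test. Without replicate A at 20 h of the 12-month collection, or without replicate C at 20 h of the 24-month collection, none of the 74 genes was called for the interaction, and without either library of 2 h in the 24-month collection there were 7.

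A few subunits with values unlike the rest are given as levels only, since they were picked after their values were seen. ndufa4, cox5b2 and atp5l, a membrane subunit of ATP synthase, had 80.9, 64.7 and 8.22 CPM in replicate C at 8 h of the 24-month collection, against 40.9, 40.4 and 3.24 CPM in replicate D. At 2 h the same pair of replicates had 75.5, 60.5 and 7.07 CPM against 24.7, 26.9 and 1.58 CPM. At 2 h cox4i1, by comparison, had 213 and 199 CPM. At 14 h replicates C and D of these genes were close, with 59.0, 51.7 and 6.48 CPM in replicate C and 57.7, 52.3 and 6.29 CPM in replicate D.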

How the data were processed

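Whole-number counts per gene were deposited by the authors, who mapped paired reads to the *X. maculatus* genome version 5.0 with TopHat2 and counted Ensembl release 94 genes with featureCounts. The sources used here state neither the strand nor the multi-mapping setting. All 24 columns were matched to samples by name. Members and lists were chosen with earlier results of these data known. Members took their names from the study's gene tables, and 9 IDs read with surplus zeros were brought back to 11 digits. Counts were tested with edgeR 4.0.16 in R 4.3.3 (quasi-likelihood, TMM, filterByExpr, Benjamini-Hochberg over all genes tested, threshold 0.05). The time course and the 24-h cosine used the 16 libraries of the 24-month collection, and the other tests the 16 libraries of the 4 shared times. The rain algorithm was not run. Alternatives were size factors and tests of DESeq2 1.42.0, total count scaling, no filter, each library left out, a replicate block, all 24 libraries, members by gar name and structural subunits only. Fits were tested on simulated data. No replicate pair held identical counts, and their chi-square per degree of freedom was 14.5 or more. Relative levels used genes with a median over 1 CPM. Named genes were those called in each test (at most 8 per direction by size, or the 3 smallest p where none passed), the subunit with the most reads per complex, COX1 to COX3, members listed for skin, and isoforms or copies. Symbols without a match in the names tables were not used here.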

Additional observations from a re-analysis of the deposited data

Results flagged for a closer look

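17 h replicate A of the 24-month collection lay far from the other 7 libraries of fish ab to ak. The gap to the nearest library, as a share of the range of the 8, was 0.905 for the complex I median, 0.661 for complex III, 0.844 for complex IV, 0.874 for complex V and 0.682 for COX1 to COX3. Among named complex I genes it was 0.8498 for ndufb2, 0.938 for ndufs4, 0.819 for ndufb10, 0.784 for ndufv1 and 0.797 for ndufaf5. In complexes II and III it was 0.574 for SDHB, 0.697 for sdhaf2, 0.683 for uqcrc2b and 0.756 for uqcrh. In complex IV it was 0.8498 for cox4i1, 0.691 for COX7A2, 0.765 for cox17, 0.738 for cox6b1, 0.619 for cox5aa, 0.540 for ndufa4, 0.545 for ndufa4l2a, 0.734 for COX2 and 0.672 for COX3. In complex V it was 0.853 for atp5mc3b, 0.783 for atp5fa1 ENSXMAG00000001160, 0.849 for atp5pf and 0.796 for atp5pb. Of 117 groups of values examined 27 passed Dixon's limit, all on this library. These flags are not independent, because they read the same library and the medians are taken over the same genes.

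By the interaction test of edgeR, the course over the shared times differed between the 24-month and 12-month collections for 3 of the 74 genes. That test called 11.8% of all genes. Its adjusted p was 0.0118 for uqcrc2a, 0.0275 for SDHB and 0.0334 for uqcrc1. uqcrc2a and SDHB were in the gene set only through the list of cyclic genes. Of 21 alternatives, uqcrc2a was called in 19, SDHB in 11 and uqcrc1 in 9. In the 24-month collection all 3 were higher at 14 h than at 20 h in both pairs of libraries, and in the 12-month collection lower.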

How the results depend on the processing

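The 54 genes called between the 24-month and 12-month collections became 47 to 57 under other scalings, filters, tools, member definitions and left-out libraries, and 30 at 8 h and 22 at 20 h taken alone. Among named genes, the difference between collections turned negative at 8 h taken alone for atp5mc3b (-0.0781), atp5fa1 ENSXMAG00000001160 (-0.15), cox15 (-0.0355), ndufa4 (-0.0629) and ndufa4l2a (-0.25), at 14 h for atp5fa1 ENSXMAG00000001160 (-0.0504), at 20 h for uqcrc2a (-0.50), sdha (-0.16), SDHB (-0.30), cox15 (-0.45), cox17 (-0.10), ndufa4 (-0.14) and ndufaf3 (-0.13), and at 2 h for atp5mc3b (-0.0222), on the log2 scale. Of these only uqcrc2a and ndufaf3 were called over the 4 times. The time course called 9 genes with DESeq2, 22 with all 24 libraries and 0 to 63 on leaving out 1 library, and the rhythm 4, 12 and 1 to 7 (7 without 17 h replicate B). The rhythm called 0 within either series of fish letters, a split chosen after seeing the data, as was their comparison, with 2 genes by DESeq2 and 0 to 36 on leaving out 1 library. Midday against midnight called 6 structural subunits, 5 genes with total count scaling, 7 without a filter, 19 with DESeq2 and 1 to 14 on leaving out 1 library: 1 to 3 without either 14 h library of the 24-month or either 2 h library of the 12-month collection, 4 without 14 h replicate A of the 12-month collection, and 6 or 7 without any 8 h library, 2 h replicate C or 20 h replicate B. Dawn against dusk called 3 to 13: 3 without either 20 h library of the 12-month collection, 4 or 5 without any 8 h or 2 h library of the 12-month collection, 5 without 8 h replicate D and 13 without 20 h replicate C of the 24-month collection. The interaction called 7 with DESeq2 and 0 to 7 on leaving out 1 library, with 1 without either library of 14 h in either collection, either 2 h library or 8 h replicate A of the 12-month collection. Over all genes DESeq2 called 4128 in the time course (270 with edgeR), 1692 for the rhythm (289), 718 between the series of fish letters (117), 3748 for midday against midnight (2108) and 4367 for the interaction (2302). All 24 libraries gave 3257 genes for the time course and 3065 for the rhythm, and total count scaling 152 for the time course. The rhythm called 96 genes within fish m to w and 0 within fish ab to ak, and the collections differed in 5110, 4572 and 4422 genes at 14, 20 and 2 h taken alone (8841 over the shared times). Leaving out 1 library moved these counts over all genes to 44 to 8918 for the time course, 136 to 1132 for the rhythm, 17 to 767 between the series of fish letters, 343 to 3058 for midday against midnight, 1190 to 4144 for dawn against dusk (2942 with all) and 210 to 6451 for the interaction. The causes were not tested.

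Replicate letters, A to D in the sample titles, were also fitted as a replicate block. The fish letters a to c of the 12-month collection were not fitted themselves, but they largely coincide with the replicate letters. Replicate A there was fish a at 8, 14 and 20 h and fish b at 2 h. Replicate B was fish c at 8, 14 and 2 h and fish b at 20 h. Deviations of same-lettered libraries correlated over 0.1 in 10 of 18 pairs of times (-0.247 to 0.297). The limit was passed by all 6 pairs of the 12-month collection, by 4 of the 6 pairs of letters C and D of the 24-month collection and by none of the 6 pairs of letters A and B. Pairing was taken only where every pair passed, so neither the 24-month collection nor the shared times were treated as paired. The block gave 5 genes for midday against midnight, losing uqcrc1, uqcrc2a, cox17, ndufaf3 and ndufaf5 among others, and 5 for dawn against dusk, without atp5fa1 ENSXMAG00000003443, uqcrh and ndufb10. It gave 4 for the interaction, 1 for the rhythm (177 over all genes) and 0 for the time course (32 over all genes). No paired analysis was possible for the 24-month against the 12-month collection because no letter is shared between them at a time. With 2 libraries per time, small changes may go undetected.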
